A study of Mus musculus with 7 samples.

Results

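The xenobiotic receptors and the accessory genes around them were examined in mouse liver, as 8 genes fixed by name: the receptor genes Nr1i2, Nr1i3 and Ahr, the AHR partner gene Arnt, and the genes of the enzymes Por, Alas1, Aldh1a1 and Tiparp. All 8 were found among the 51426 genes of the tables, and all 8 had enough counts to be among the 14754 genes tested. Liver RNA had been sequenced from 3 WT male mice (C57BL/6J) and 4 male TET1 KO mice, in which Tet1 is disrupted in the whole body, so that the loss is not limited to liver cells. For TET1 KO mice the study's methods list the stock B6;129S4-Tet1tm1.1Jae/J, and the labels give C57BL/6J. In its HFD experiment the study calls the controls of the TET1 KO mice littermates. Both groups had been fed a high fat diet (HFD) for 16 weeks, started in young adult mice, and no chow-fed mice and no mice exposed to a drug were part of the comparison. TET1 is an enzyme that oxidises methylated cytosine in CG pairs, the first step of DNA demethylation, and the comparison asks what its loss does to liver mRNA in steatotic liver disease.

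The pregnane X receptor (PXR, Nr1i2) and the constitutive androstane receptor (CAR, Nr1i3) are nuclear receptors that pair with RXR, and the aryl hydrocarbon receptor (AHR) is a bHLH-PAS protein that leaves its chaperones on ligand binding and pairs with ARNT. Each switches on cytochrome P450 genes and other genes of drug and steroid clearance, and in liver they also act on lipid and glucose metabolism. A P450 needs heme, whose synthesis starts with ALAS1, and electrons, which POR passes on from NADPH.

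The libraries held between 15005277 and 22746138 counts. Tet1 itself was near the detection floor in both genotypes, with 1 to 4 counts in each of the 7 libraries, so these counts do not check the genotype labels. Hepatocyte mRNA dominated, since the summed CPM (the count scaled to library size after TMM normalization) of 8 hepatocyte markers lay between 63328 and 84894 in the WT livers and between 75996 and 83372 in the TET1 KO livers. The summed CPM of 6 cholangiocyte markers was higher in every TET1 KO liver (46.2 to 67.9) than in every WT liver (29.7 to 37.9), and that of 7 endothelial markers was lower (123.9 to 146.7 against 150.5 to 152.7), while the other 8 of 10 marker lists, that of hepatocytes included, overlapped between the genotypes. None of the marker genes was at 0 in all livers. The part of these shifts in the results was not tested, and in whole liver fewer cells of a type cannot be told apart from less RNA per cell.

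Of the 8 genes, 0 were called by edgeR's quasi-likelihood test, with the p-value adjusted over 14754 genes by the Benjamini-Hochberg method and a limit of 0.05, whereas 2.02% of all genes passed (0.874% higher and 1.15% lower in TET1 KO livers). At an unadjusted p under 0.05 there were 2, Nr1i3 and Alas1, beside 26.3% of all genes, and DESeq2 called 1 of the 8, Nr1i3, beside 8.69% of all genes. In 2 of the 8 the genotypes were fully apart, with Nr1i3 above and Aldh1a1 below the WT range, beside 22.5% of all genes (11.7% above and 10.8% below). The fold changes were positive in 4 genes and negative in 4, with a median log2 fold change of 0.01, and that of all tested genes was 0.01 as well. As a group, the 8 genes stood close to the background of all genes.

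**Figure D1:**
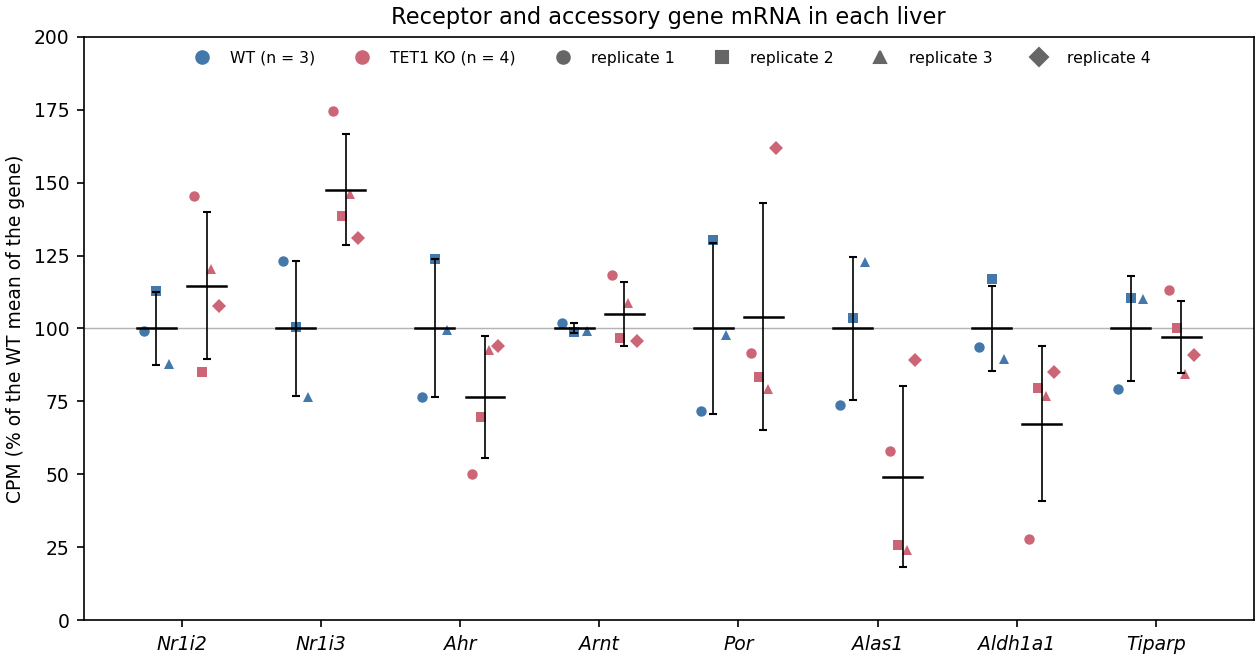
CPM of each of the 8 genes in each liver, as a percentage of the WT mean of that gene, for 3 WT livers (blue) and 4 TET1 KO livers (red), with symbols for the replicate and black lines for the mean ± SD. Every TET1 KO liver lies above every WT liver in Nr1i3 and below every WT liver in Aldh1a1, and the other 6 genes overlap.

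Among the receptors, Nr1i3 (CAR) had the largest difference relative to its error. Its level was 518, 423 and 323 CPM in WT replicates 1 to 3 and 735, 584, 616 and 552 CPM in TET1 KO replicates 1 to 4. The lowest TET1 KO liver thus lay above the highest WT liver, and the spread was no wider in the TET1 KO group (SD 79.9 CPM, n = 4) than in the WT group (SD 97.8 CPM, n = 3). The log2 fold change was 0.56 (standard error 0.19, 95% interval 0.14 to 0.98), which is 1.48-fold (1.10 to 1.97), with an unadjusted p of 0.0132 and an adjusted p of 0.105 in edgeR's quasi-likelihood test. DESeq2 put it just past the threshold (log2 fold change 0.54, adjusted p = 0.0495). Over all alternatives the adjusted p of Nr1i3 lay between 0.0495 and 0.340, the highest without WT replicate 2, where the log2 fold change was 0.56, and the smallest log2 fold change was 0.38, without WT replicate 3 (adjusted p = 0.289, edgeR). Nr1i3 lies at chr1:171213934-171218845 on the plus strand of GRCm38.p6 and shares 1044 bases at its 3′ end with Tomm40l, a mitochondrial import gene. Tomm40l had a log2 fold change of 0.44 (adjusted p = 0.176, edgeR) and its groups did not overlap either. Its mean was 8.94 CPM in WT and 12.1 CPM in TET1 KO livers, far under that of Nr1i3, and since the strand setting of the counting is not given, reads of the shared stretch cannot be assigned with certainty.

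Nr1i2 (PXR), the receptor for steroids, bile acids and many drugs, had 67.2, 76.4 and 59.5 CPM in WT livers and 98.5, 57.7, 81.5 and 72.9 CPM in TET1 KO livers. The highest and the lowest of the 7 values were both TET1 KO livers, replicates 1 and 2. The log2 fold change was 0.20 (standard error 0.18, 95% interval -0.19 to 0.59, adjusted p = 0.492 in edgeR), so the data allow a change of Nr1i2 from 0.874-fold to 1.50-fold.

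Ahr, the receptor for dioxin-like and indole ligands, had 30.3, 49.1 and 39.5 CPM in WT livers and 19.8, 27.7, 36.7 and 37.3 CPM in TET1 KO livers. TET1 KO replicates 1 and 2 lay under all WT livers, and replicates 3 and 4 lay within the WT range. The log2 fold change was -0.38 (standard error 0.23, 95% interval -0.89 to 0.12), with an adjusted p of 0.300 in edgeR's test. Arnt, the common partner of AHR and of the hypoxia-inducible factors, was the steadiest of the 8 genes within each genotype. It had 27.2, 26.4 and 26.4 CPM in WT livers and 31.6, 25.8, 29.0 and 25.5 CPM in TET1 KO livers, where replicates 2 and 4 lay just under and replicates 1 and 3 above the WT values. Its log2 fold change was 0.07 (standard error 0.13, 95% interval -0.21 to 0.35, adjusted p = 0.751 in edgeR).

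Of the 4 enzymes, Alas1 had the largest fold change of all 8 genes. ALAS1, the rate-limiting enzyme of heme synthesis in liver, is itself a target of CAR and PXR. Alas1 was at 382, 535 and 634 CPM in WT livers and at 300.1, 133, 124 and 461 CPM in TET1 KO livers. TET1 KO replicates 2 and 3 were at 25.8% and 24.0% of the WT mean, replicate 1 was at 58.1%, and replicate 4, at 89.2%, lay inside the WT range. The log2 fold change was -1.02 (standard error 0.40, 95% interval -1.91 to -0.13), which is 2.03-fold lower, with an unadjusted p of 0.0279 and an adjusted p of 0.145 in edgeR's test. Leaving out TET1 KO replicate 4 gave a log2 fold change of -1.48 and an adjusted p of 0.0364 (edgeR), and leaving out WT replicate 2 gave the highest adjusted p of any alternative, 0.388. The coefficient of variation of Alas1 was 24.6% among WT and 62.7% among TET1 KO livers, the widest of the 8 genes in the TET1 KO group.

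Aldh1a1, a cytosolic enzyme that oxidises retinaldehyde and other aldehydes, was the most abundant of the 8 genes. It had 1547, 1933 and 1484 CPM in WT livers and 461, 1318, 1272 and 1405 CPM in TET1 KO livers. The highest TET1 KO value was under the lowest WT value, but replicates 2 to 4 were at 76.9% to 84.9% of the WT mean and replicate 1 was at 27.8%. The log2 fold change was -0.57 (standard error 0.33, 95% interval -1.29 to 0.15, adjusted p = 0.283 in edgeR's test), and without TET1 KO replicate 1 it was -0.31.

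Por, the flavoprotein that feeds electrons to microsomal P450s, had 141, 256 and 192 CPM in WT livers and 180.0, 164, 155 and 318 CPM in TET1 KO livers. The highest value was that of TET1 KO replicate 4, and the other TET1 KO livers lay within the WT range. The log2 fold change was 0.06 (standard error 0.27, 95% interval -0.54 to 0.65, adjusted p = 0.909 in edgeR's test), and its sign turned in 4 of 14 alternatives. Tiparp (PARP7), a mono-ADP-ribosyl transferase that AHR induces and that acts back on AHR, was the lowest of the 8. It had 4.52, 6.29 and 6.29 CPM in WT livers and 6.44, 5.70, 4.80 and 5.19 CPM in TET1 KO livers, resting on 81 to 152 counts per library. The TET1 KO values spanned most of the WT range, and the log2 fold change was -0.05 (standard error 0.19, 95% interval -0.47 to 0.38, adjusted p = 0.897 in edgeR's test).

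**Figure D2:**
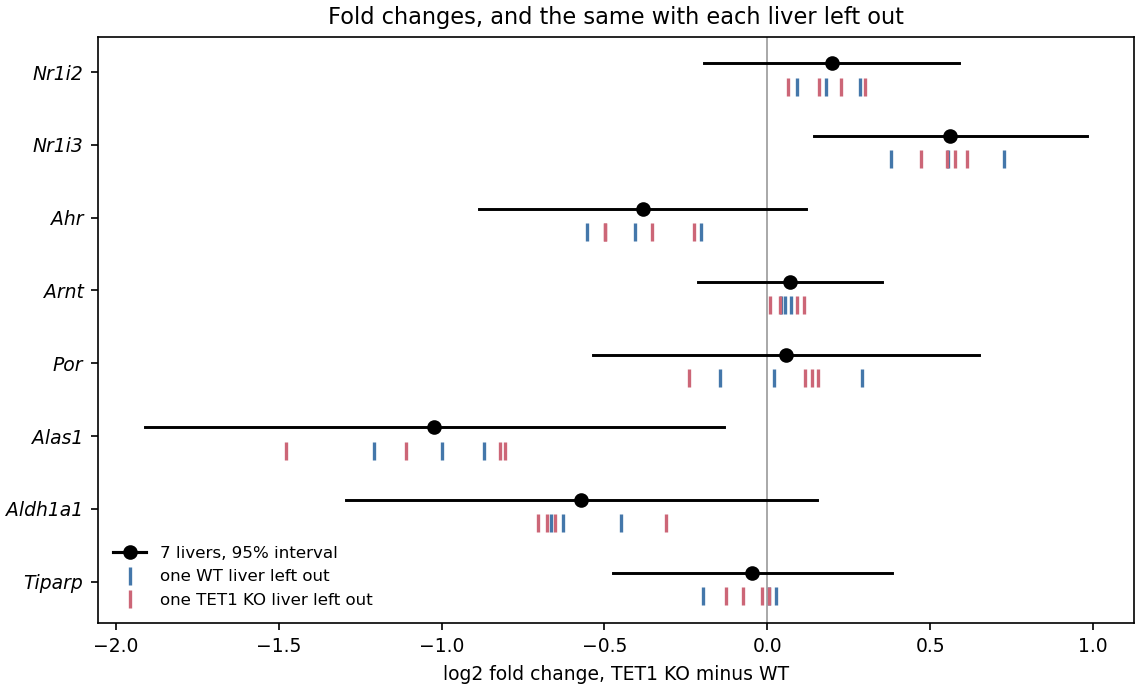
Log2 fold change of each gene, TET1 KO minus WT, from edgeR with its 95% interval (black), and the value when 1 WT liver (blue ticks) or 1 TET1 KO liver (red ticks) was left out. The intervals of Nr1i3 and Alas1 do not cross 0, the left-out values of Alas1 run from -1.48 to -0.81, and those of Por and Tiparp lie on both sides of 0.

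Levels were compared between genes per kilobase of exon. The length counted every base that lies in an exon of any annotated transcript, 4414 bases for Nr1i3 and 2053 for Aldh1a1. For Nr1i3 this covers most of the gene record, so its level per kilobase may be understated. The order between genes depends on this choice, and other lengths were not tested. In WT livers the order of the mean CPM per kilobase was Aldh1a1 (806), Alas1 (119.9), Nr1i3 (95.4), Por (48.9), Nr1i2 (26.5), Ahr (6.42), Arnt (3.33) and Tiparp (1.43). Among neighbours in this order, the ranges overlapped for Alas1 and Nr1i3 and for no other pair. CAR mRNA was thus present at a higher level per kilobase than PXR mRNA in each liver, and both stood above Ahr. In TET1 KO livers Nr1i3 took second place, at a mean of 140.9 CPM per kilobase (range 125.1 to 166.5), above all values of Alas1 (mean 59.1, range 28.7 to 106.9). There the ranges of Alas1 and Por and those of Ahr and Arnt overlapped.

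**Figure D3:**
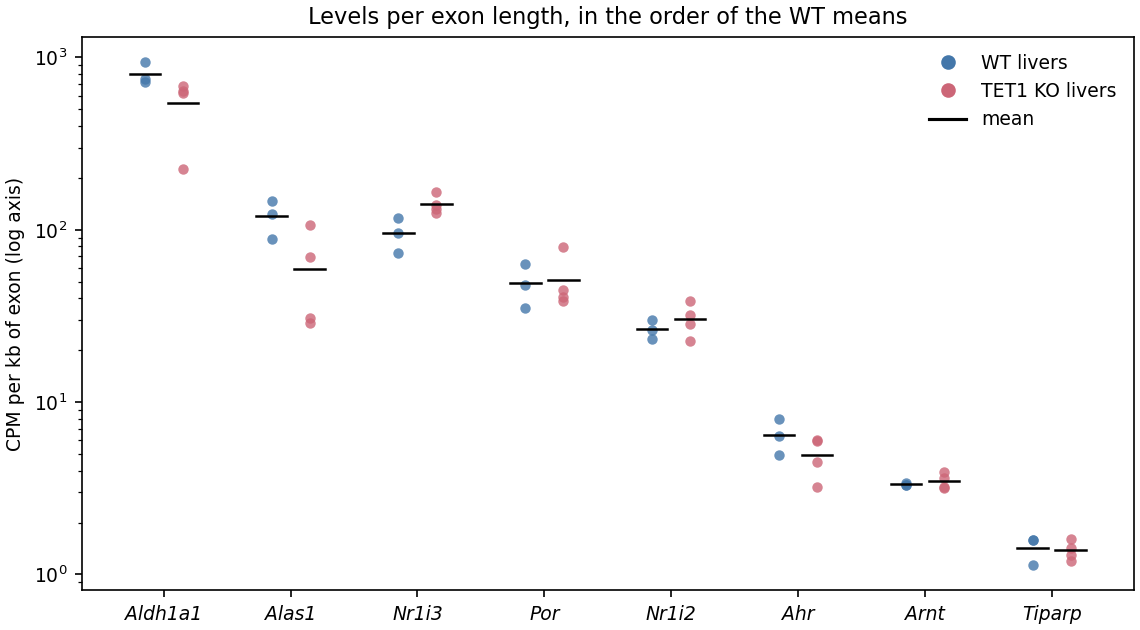
CPM per kilobase of exon of each gene in the WT (blue) and TET1 KO (red) livers on a log axis, in the order of the WT means (black lines). The WT ranges of Alas1 and Nr1i3 overlap, whereas in TET1 KO livers every value of Nr1i3 lies above every value of Alas1.

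Ratios of 2 genes within a liver do not depend on the scaling of the library. They are given as values, with no test. The log2 ratio of Alas1 to Por counts was 1.43, 1.06 and 1.72 in WT livers and 0.74, -0.30, -0.33 and 0.53 in TET1 KO livers. The genotypes were apart, although Alas1 and Por each overlapped when taken alone. In TET1 KO replicate 4, whose Alas1 lay inside the WT range, Por was the highest of all livers, and its ratio was low with the rest of its group. The log2 ratio of Nr1i3 to Nr1i2 averaged 2.62 ± 0.29 (SD, n = 3) in WT and 3.02 ± 0.21 (SD, n = 4) in TET1 KO livers, and WT replicate 1 (2.95) lay within the TET1 KO range. That of Ahr to Arnt averaged 0.54 ± 0.37 in WT and 0.08 ± 0.53 in TET1 KO livers, and that of Tiparp to Ahr -2.79 ± 0.16 and -2.42 ± 0.61. Both overlapped between the genotypes.

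**Figure D4:**
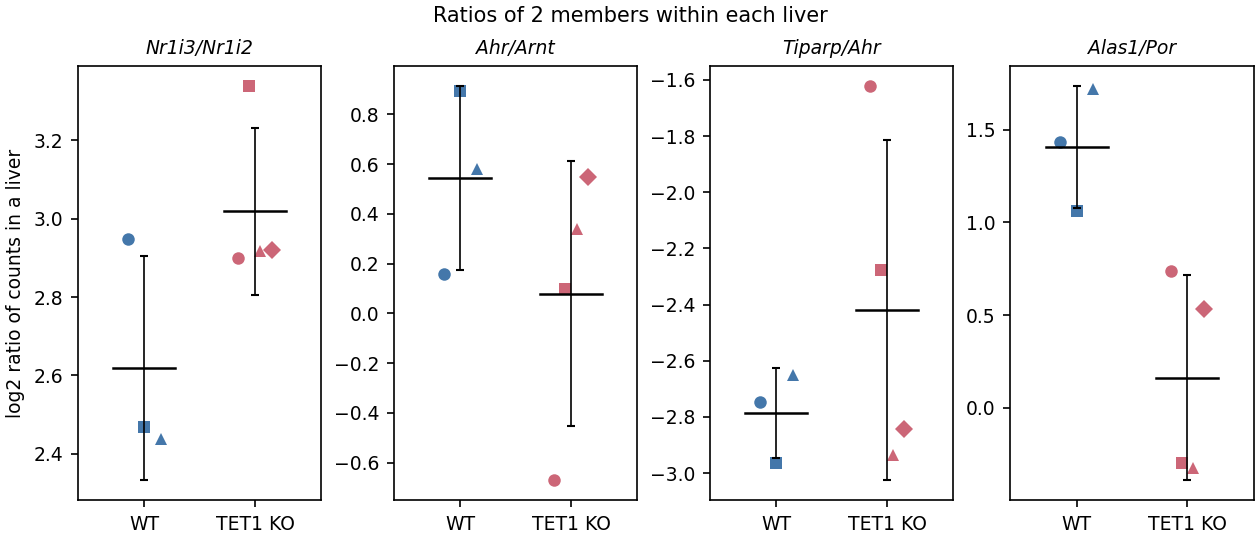
Log2 ratio of the counts of 2 genes within each liver, for 3 WT (blue) and 4 TET1 KO (red) livers with the mean ± SD, each panel on its own axis. The Alas1 to Por ratio is at or above 1.06 in each WT liver and at or below 0.74 in each TET1 KO liver, and the other 3 ratios overlap.

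The upstream sequences of the 3 genes with the smallest p, Nr1i3, Alas1 and Aldh1a1, are shown here because the protein missing from the TET1 KO mice acts on CG pairs. They are RefSeq sequences of GRCm38.p6, read 5′ to 3′ on the strand of the gene and ended before the first transcript base of RefSeq or GENCODE M1, or for Aldh1a1 of its downstream start, with CG pairs and the E-box CACGTG in capitals. For Alas1 the upstream one of 2 windows is shown, and it stops short of the RefSeq start because a GENCODE M1 transcript begins further upstream. They lie at chr1:171213720-171213933 (plus strand), chr9:106248127-106248204 (minus strand) and chr19:20601718-20601960 (plus strand).
Nr1i3: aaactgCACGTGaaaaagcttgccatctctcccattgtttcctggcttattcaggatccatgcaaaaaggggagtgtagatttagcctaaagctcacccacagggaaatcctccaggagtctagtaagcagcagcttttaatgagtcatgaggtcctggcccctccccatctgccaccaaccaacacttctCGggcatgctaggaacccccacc
Alas1: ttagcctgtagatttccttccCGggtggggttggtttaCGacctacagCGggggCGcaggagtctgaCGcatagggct
Aldh1a1: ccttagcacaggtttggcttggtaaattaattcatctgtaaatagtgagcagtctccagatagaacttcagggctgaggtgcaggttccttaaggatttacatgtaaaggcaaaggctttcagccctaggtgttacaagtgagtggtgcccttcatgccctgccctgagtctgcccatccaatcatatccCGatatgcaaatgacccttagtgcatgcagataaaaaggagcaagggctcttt

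In windows of 300 bases around each start, the promoter table held 7 of the 8 genes, Ahr not among them, and the genes fell on both sides of the median of 7 CG pairs over 32851 windows. Nr1i2 had 2 CG pairs, Nr1i3 had 3 and the starts of Aldh1a1 had 3 and 1. Arnt had 19, Por 27, Tiparp 34 and the starts of Alas1 44 and 27. The AHR-ARNT core GCGTG, searched on both strands and containing a CG pair, occurred 3 times at Por, once at Tiparp, at Arnt and at Alas1, whose overlapping windows share it, and in 32.4% of all windows. CACGTG, the E-box of clock proteins, which contains a CG pair too, occurred once, near the 5′ end of the stretch printed for Nr1i3, and in 7.15% of all windows. The D-box TTACGTAA (0.119% of windows) and the nuclear receptor half-sites AGGTCA (16.3%) and AGTTCA (14.0%), all searched on both strands, did not occur in the windows of these genes. These are letters in the windows only, and DNA methylation was not analysed here.

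Around the 8 genes, 15 lists of partners, regulators, targets and neighbouring enzymes were read from the same fit, with the 8 genes left out. Of 214 distinct genes tested, 17 had an adjusted p under 0.05, 10 higher and 7 lower in TET1 KO livers, which is 7.94% beside 2.02% of all genes. This count was 3 without WT replicate 2 (0.255% of all genes called), 35 without TET1 KO replicate 4 (6.18%) and 45 with DESeq2 (8.69%). It was 38 with the replicate number as a covariate (replicate block), where 1326 of 14754 genes were called. At an unadjusted p under 0.05 there were 81 of 214, 37.9%, beside 26.3% of all genes. The same shares over all genes stand beside each list below. The main fit named below is edgeR with all 7 livers and no covariate. The lists were drawn up with results of these data known, so their shares are not independent evidence.

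Targets of the 3 receptors had more negative than positive fold changes, where 7544 of all 14754 genes were positive, and Abcc2, Aldh1a7 and Ugt1a1 count as targets of both PXR and CAR. Reads may be shared between related genes, such as Ugt1a1, Ugt1a6a and Ugt1a6b, or Aldh1a7 and Aldh1a1. The targets are therefore not all separate observations. Every TET1 KO liver was under the WT range in 6 of 14 PXR, 4 of 14 CAR and 2 of 6 AHR targets, beside 10.8% of all genes, and above it in 1 PXR target, Ces2a (0.57, adjusted p = 0.0832, edgeR), and 1 CAR target, Cyp2c37 (0.91, adjusted p = 0.0828), beside 11.7%. The only AHR target with a positive fold change was Cyp1a2 (0.64, adjusted p = 0.149, edgeR), a P450 of high level in liver, and these 3 genes were singled out after their values were seen. Of the 14 PXR targets, 12 had a negative fold change, with a median log2 fold change of -0.81, and 3 fell: Cd36, a fatty acid transporter that other receptors control as well (log2 fold change -2.97, adjusted p = 0.00346), Gsta1, a glutathione S-transferase (-3.98, adjusted p = 0.0246), and Cyp3a11, the main steroid and drug hydroxylase of the family (-1.28, adjusted p = 0.0437, all from edgeR). Cyp3a11 was at 1015, 1499 and 624 CPM in WT and at 436, 318, 537 and 429 CPM in TET1 KO livers, so the groups did not overlap. Gsta1 was at 10.2, 3.56 and 0.992 CPM in WT and at 0.188, 0.141, 0.562 and 0.278 CPM in TET1 KO livers. Its WT values were thus far apart, and its TET1 KO values lay near the detection floor. With each liver left out in turn, Cd36 kept its call in 7 of 7 fits, Gsta1 in 3 and Cyp3a11 in 2, and without WT replicate 2 the adjusted p was 0.0924 for Gsta1 and 0.206 for Cyp3a11 (edgeR). At an unadjusted p under 0.05 there were 8 PXR targets, beside 26.3% of all genes. DESeq2 called 8 (1 higher and 7 lower), beside 8.69% of all genes, and edgeR called 6, all lower, with the replicate block. Of 14 CAR targets, 11 were negative with a median of -0.70. The main fit of edgeR called 0 of them, against 7 at an unadjusted p under 0.05 and 5 called by DESeq2. In edgeR 3 CAR targets were called without TET1 KO replicate 4 and 3, all lower, with the replicate block. It called 2 each without WT replicate 3, with library size only and without the low-count filter. The CAR target with the smallest p was Gsta2 (-1.83, adjusted p = 0.0555, edgeR), which is close in sequence to Gsta1, so that their counts are uncertain. Of 6 AHR targets, 5 were negative with a median of -0.60, and 1 fell, the quinone reductase Nqo1 (-1.28, adjusted p = 0.0374, edgeR), from 10.9, 8.82 and 7.83 CPM in WT to 2.00, 3.87, 4.80 and 4.31 CPM in TET1 KO livers. Nqo1 kept its call in 3 of 7 fits with a liver left out and had an adjusted p of 0.149 without WT replicate 2 (edgeR). Set beside these targets, the receptor mRNAs had fold changes of 0.20 (Nr1i2), 0.56 (Nr1i3) and -0.38 (Ahr) on the log2 scale.

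Partners and regulators of the receptors had no call in edgeR's main fit. Among 14 RXR partners and coregulators there were 3 at an unadjusted p under 0.05, beside 26.3% of all genes, and 1 called by DESeq2. For this list edgeR called 1 without TET1 KO replicate 4 and 1, higher, with the replicate block. The smallest p was that of Crebbp, a coactivator (0.64, adjusted p = 0.0893, edgeR). Among 7 chaperones of the cytosolic receptors there was 1 at an unadjusted p under 0.05, 1 called by DESeq2 and 1, higher, called with the replicate block. The smallest p was that of Hsp90aa1 (0.67, adjusted p = 0.0883, edgeR). Among 10 genes that control receptor transcription there were 2 at an unadjusted p under 0.05 and 0 called by DESeq2. The other 5 tested genes of the bHLH-PAS family likewise gave 2 and 0, led by Hif1a (-0.39, adjusted p = 0.168, edgeR).

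Of 18 clock genes and PAR bZIP factors, which drive daily rhythms of Alas1 and Por in liver, 4 rose and none fell in edgeR's test: Per3 (1.12, adjusted p = 0.00820), Tef (0.79, adjusted p = 0.0224), Bhlhe41 (1.58, adjusted p = 0.0437) and Dbp (0.91, adjusted p = 0.0437). Dbp was at 157, 103 and 84.6 CPM in WT and at 220.4, 227, 212 and 202 CPM in TET1 KO livers. With each liver left out in turn, Per3 kept its call in 6 of 7 fits, Tef in 3, Dbp in 2 and Bhlhe41 in 1, and without WT replicate 2 their adjusted p lay between 0.0604 and 0.224 (edgeR). Over all genes 0.874% were called higher and 1.15% lower, and the median log2 fold change of the 18 genes was 0.23. The hour at which the livers were taken is not given in the sources used here, and its part in the values of Alas1, Por and Nr1i3 was not tested.

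Around ALAS1, the other 8 genes of heme synthesis had a median log2 fold change of -0.08. None was called in edgeR's main fit or in DESeq2, and 1 was called lower in edgeR with the replicate block. At an unadjusted p under 0.05 there were 2, beside 26.3% of all genes. The smallest p was that of Alad, the next enzyme of the pathway (0.51, adjusted p = 0.102, edgeR). The 13 genes of heme breakdown, export and ALAS1 turnover had a median of -0.01 and no call in edgeR's main fit. There were 6 at an unadjusted p under 0.05 and 4 called by DESeq2. For this list edgeR called 4 with the replicate block (2 higher and 2 lower), 1 without WT replicate 1 and 1 without TET1 KO replicate 4. Clpx, part of the protease that removes ALAS1, had a log2 fold change of -0.75 (adjusted p = 0.0730, edgeR). Around POR, the other 10 genes of electron transfer to P450s had a median of 0.27 and no call in edgeR's main fit. There were 6 at an unadjusted p under 0.05 and 2 called by DESeq2. Other edgeR fits gave calls, among them 2 without TET1 KO replicate 4 and 1 each with robust dispersions and without the low-count filter. The smallest p was that of the adrenodoxin reductase Fdxr (0.66, adjusted p = 0.0501, edgeR).

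The 68 tested microsomal P450s that POR can serve had a median log2 fold change of -0.27. In edgeR's main fit 5 of them rose and 4 fell, beside 0.874% higher and 1.15% lower over all genes. DESeq2 called 15 of them, beside 8.69% of all genes. The edgeR calls depended on single livers. Without WT replicate 2, where 0.255% of all genes were called, 2 rose and 0 fell, and the same counts stood without TET1 KO replicate 3. Without TET1 KO replicate 2, 1 rose and 1 fell, and without WT replicate 1, 2 rose and 2 fell. Without TET1 KO replicate 1, 3 rose and 2 fell. Without TET1 KO replicate 4, where 6.18% of all genes were called, 6 rose and 8 fell. The smallest p-values were those of Cyp2c54 (1.83, adjusted p = 0.00343), Cyp2c38 (-2.26, adjusted p = 0.0151), Cyp4a12a (1.67, adjusted p = 0.0198) and Cyp4a12b (1.66, adjusted p = 0.0207), the last 2 being near-identical copies between which reads may be split. With each liver left out in turn, Cyp2c54 kept its call in 7 of 7 fits, Cyp4a12a in 6, Cyp2c38 in 5 and Cyp4a12b in 3, and without WT replicate 2 the adjusted p of both Cyp2c38 and Cyp4a12b was 0.0924 (edgeR). Por itself had a log2 fold change of 0.06.

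Around ALDH1A1, the other 14 aldehyde dehydrogenases were negative in 11 and had a median log2 fold change of -0.33, with no call in edgeR's main fit. There were 5 at an unadjusted p under 0.05, beside 26.3% of all genes, and 2 called by DESeq2. Other edgeR fits gave calls, among them 1 without WT replicate 3. The smallest p was that of Aldh3a2, which oxidises fatty aldehydes (-0.79, adjusted p = 0.0883, edgeR). The other 23 genes of retinoid metabolism had a median of -0.04 and no call in edgeR's main fit. There were 8 at an unadjusted p under 0.05 and 4 called by DESeq2. Among the other edgeR fits, 2 were called without TET1 KO replicate 4 and 1 each without WT replicate 3 and without the low-count filter. The list was led by Aox1 (-0.83, adjusted p = 0.0699, edgeR). Around TIPARP, 1 of 14 other ADP-ribosyl transferases and hydrolases rose, Parp16, an enzyme of the endoplasmic reticulum (1.07, adjusted p = 0.00820, edgeR), from 18.6, 14.1 and 15.2 CPM in WT to 36.7, 34.1, 34.5 and 29.1 CPM in TET1 KO livers. Parp16 kept its call in 6 of 7 fits with a liver left out and had an adjusted p of 0.0527 without WT replicate 2 (edgeR).

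**Figure D5:**
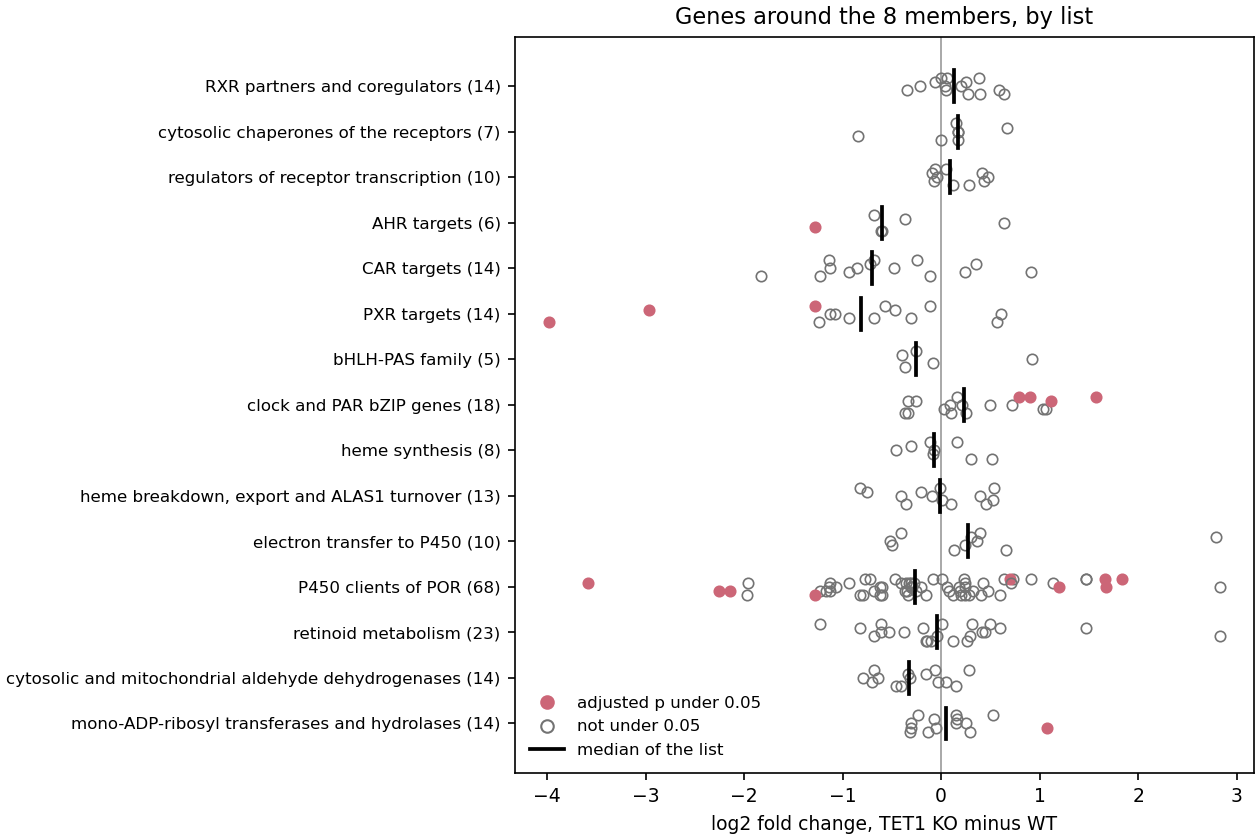
Log2 fold change, TET1 KO minus WT, of each tested gene of the 15 lists (number of genes in brackets), with genes of an adjusted p under 0.05 in edgeR filled in red and the median of each list as a black line. Called genes lie to the left in the AHR and PXR target lists, to the right in the clock list and on both sides among the P450s.

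For the 3 genes with the smallest p, the genes most alike across the 7 livers were taken as those with the smallest mean absolute difference in centred log2 CPM, among 13196 genes with a mean of at least 1 CPM. For Nr1i3 these were Tnrc6c (0.068), Ap4m1 (0.071) and Polm (0.074). For Alas1 the distances were larger, with Fkbp5 (0.159), E2f8 (0.251) and Gm15801 (0.278). Fkbp5, a chaperone of the glucocorticoid receptor, lay between 22.4 and 39.8 CPM in WT and between 8.84 and 29.7 CPM in TET1 KO livers, an overlap like that of Alas1. For Aldh1a1 they were Chchd2-ps (0.051), Tm2d1 (0.073) and Akr1c20 (0.076). The adjusted p of these 9 genes lay between 0.0773 and 0.268 in edgeR.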

How the data were processed

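The authors deposited raw read counts per Ensembl gene for 3 WT and 4 TET1 KO livers, without normalization. Per the submitters' processing notes, the tools were Trimmomatic 0.36, GSNAP and featureCounts 1.5.3 on GRCm38. The libraries were made with a strand-marking kit, and the strand setting of the counting is not given in the sources used here. Of 51431 entries, 5 repeats were left out.

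Counts were fitted with edgeR 4.0.16 in R 4.3.3 (filterByExpr, TMM, quasi-likelihood test without covariates), with Benjamini-Hochberg adjustment over all 14754 tested genes and a limit of 0.05. The F statistic gave the standard errors and 95% intervals. CPM were scaled by TMM, with a prior count of 2 on the log2 scale. The script was tested on simulated counts. Exon lengths came from GENCODE M1 by Ensembl identifier, positions and promoters from RefSeq (GRCm38.p6).

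The 8 genes and all lists were chosen with earlier results of these data known. Named from each list were the called genes, at most the 4 of smallest p, or otherwise the gene of smallest p, except 1 gene that is not reported here. Alternatives were DESeq2 1.42.0, its size factors, library size only, 2 other filters on low counts, robust dispersions, a replicate block and leaving out each liver. The labels number the livers as replicates and name no animal or batch, so p-values measure only the spread between these samples. Libraries of a genotype differed by more than sampling noise (chi-square per degree of freedom at least 25.3). Figures used matplotlib.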

Additional observations from a re-analysis of the deposited data

Results flagged for a closer look

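Among the 4 TET1 KO livers, 4 of 35 sets of values held a liver far from the other 3, by a gap past Dixon's 95% critical value when divided by the whole range, where chance flags about 1.75 of 35. For Aldh1a1 this was replicate 1, at 461 CPM against 1272 to 1405 CPM (gap 0.859 of the range). For Por it was replicate 4, at 318 CPM against 155 to 180.0 CPM (gap 0.849). For the log2 ratio of Nr1i3 to Nr1i2 it was replicate 2, at 3.34 against 2.90 to 2.92 (gap 0.951). For Clpx it was replicate 1, at 27.1 CPM against 46.8 to 49.8 CPM (gap 0.866). The far liver was thus not the same in each, and the 3 WT livers were not examined by this rule.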

How the results depend on the processing

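The number of genes called over the whole table was 298 and depended on single livers, from 38 without WT replicate 2 to 891 without TET1 KO replicate 4. It was 1316 with DESeq2, 592 without the low-count filter and 1326 with the replicate block. Of the 8 genes 0 were called, except that 1 was called by DESeq2 (Nr1i3, log2 fold change 0.54, adjusted p = 0.0495), 1 with the replicate block (Alas1, -1.59, adjusted p = 0.0398, edgeR) and 0 to 1 with each liver left out (Alas1 without TET1 KO replicate 4, -1.48, in a range of -1.48 to -0.81). Distinct genes called on the lists numbered 17, with 45 in DESeq2, 38 with the replicate block and 3 (without WT replicate 2) to 35 (without TET1 KO replicate 4) with each liver left out. Signs turned for Arnt (-0.025) and Por (-0.028) with scaling to library size only, for Por with the replicate block (-0.20), without WT replicate 1 (-0.14) and without TET1 KO replicate 4 (-0.24, in a range of -0.24 to 0.29 with each liver left out), and for Tiparp without WT replicate 2 (0.027), WT replicate 3 (0.0043) and TET1 KO replicate 3 (0.0044). With library size only, the share of higher genes among all calls was 25.5% in place of 43.3%. Of 112 fold changes of the 8 genes, 101 kept both direction and side of the threshold, 8 turned and 3 passed the threshold. The cause of these shifts was not tested.

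The labels do not say that equal replicate numbers pair the samples. Deviations of same-numbered livers correlated at 0.21, -0.12 and -0.10. Livers of different numbers were not compared in this way, so these values cannot decide whether the numbers pair samples. The replicate block leaves TET1 KO replicate 4, which has no WT partner, out of the contrast. With 3 and 4 livers, the 95% intervals of the 8 genes were between 0.56 and 1.78 wide on the log2 scale, so changes of that order can escape detection, and Tiparp and Tet1 are limited by counts.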
